A study of Mus musculus with 6 samples.

Results

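The hepatocyte identity transcription factors examined here were Hnf4a, Foxa1, Foxa2, Foxa3, Cebpa, Cebpb, Onecut1, Prox1 and Nr5a2, and their RNA was compared between L1-Tg and WT livers. The 9 genes were listed by their known function, with earlier results of these data known, and their probes are those whose RefSeq transcript belongs to one of them. All 9 were found among the 37074 genes on the array, with 11 probes, and each probe was well above background on all 6 arrays. L1-Tg mice carry human NPC1L1, a transporter that takes cholesterol back from bile, under the liver-specific ApoE promoter. They were hemizygous males of the strain B6;D2-Tg(APOE-NPC1L1)20Lqyu/J after at least 8 generations of backcross to C57BL/6J, and the WT mice were their male littermates without the transgene. Both groups were fed the control-fat diet (CFD), with food and water freely available and 12 h of light and 12 h of dark. The labels give no age for these pools, and the methods name both a main age range and a set of older males without saying which was used for the arrays. Each group had 3 arrays, and each array held liver RNA pooled from 2 or 3 mice. The errors below therefore rest on the spread between pools.

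These proteins keep hepatocytes in their differentiated state. HNF4A is a nuclear receptor that holds many liver genes active, the FOXA proteins are pioneer factors that open chromatin at liver enhancers, and the C/EBP proteins are leucine zipper factors of metabolism and of the acute phase response. ONECUT1, also called HNF6, acts with HNF4A and FOXA2 in liver development and in the adult hepatocyte, NR5A2 (LRH-1) drives genes of bile acid and cholesterol metabolism, and PROX1 is a homeobox protein that restrains some of the same genes. They bind one another's promoters, and loss of several of them is known to bring back fetal or biliary genes.

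The sequences before 3 of the annotated starts are shown because they belong to Hnf4a, the member at the center of this network, and to Onecut1, the member with the widest spread between pools. Hnf4a has 2 annotated starts, of which the upstream one is known from pancreas and fetal liver and the downstream one from adult liver, and whether its array probe tells their transcripts apart is not given in the sources used here. Each sequence is the 250 bases before a start, taken from RefSeq annotation of GRCm38.p6 on the plus strand, with matches to the motifs listed below in capitals.
Hnf4a, upstream start, chr2:163506607-163506856: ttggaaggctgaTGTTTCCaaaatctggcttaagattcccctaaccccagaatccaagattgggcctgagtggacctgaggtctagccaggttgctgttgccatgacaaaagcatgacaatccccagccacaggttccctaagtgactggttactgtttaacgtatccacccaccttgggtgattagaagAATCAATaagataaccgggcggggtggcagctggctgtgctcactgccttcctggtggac
Hnf4a, downstream start, chr2:163546905-163547154: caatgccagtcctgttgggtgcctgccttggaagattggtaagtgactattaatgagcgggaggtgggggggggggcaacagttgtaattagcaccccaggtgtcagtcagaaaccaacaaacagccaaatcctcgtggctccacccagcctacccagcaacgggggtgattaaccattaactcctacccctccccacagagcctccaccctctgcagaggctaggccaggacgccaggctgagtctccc
Onecut1, chr9:74861671-74861920: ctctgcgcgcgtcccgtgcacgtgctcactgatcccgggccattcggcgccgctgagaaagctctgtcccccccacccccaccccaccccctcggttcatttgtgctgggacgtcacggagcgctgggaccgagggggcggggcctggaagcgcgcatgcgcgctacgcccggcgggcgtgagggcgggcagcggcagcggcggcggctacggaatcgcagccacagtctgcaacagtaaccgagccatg
The motifs searched on both strands were TGTTTNC for FOXA, ATTGATT for ONECUT, TTGCNNAA for C/EBP, CAAAGTCCA for HNF4, CAAGGTCA for NR5A and GTTAATNAT for HNF1. The upstream Hnf4a start held a FOXA match from 238 to 232 bases before it and an ONECUT match on the other strand from 60 to 54 bases before it. In the downstream Hnf4a window and in the Onecut1 window none of these letters occurred. The 9 genes have 14 annotated starts in the RefSeq table, and 6 of the 14 windows held at least 1 of the motifs, against 28.5% of 32851 promoter windows of the same length. FOXA matches stood before 3 member starts (17.8% of all windows), ONECUT matches before 2 (2.61%), and C/EBP and HNF1 matches before 1 start each (9.56% and 0.737%). The HNF4 and NR5A motifs, which 0.384% and 1.33% of all windows hold, were found before 0 of the 14. A match describes the letters and is not a measured binding site.

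All 6 arrays shared 1 slide and 1 scan. Row 1 of the slide held WT pools and row 2 held L1-Tg pools, so slide row and genotype cannot be told apart. Pools of the same replicate number shared a slide column. Signals are given as log2 of the processed signal minus log2 of the 75th percentile of the array, which lay between 297 and 378, and levels are not compared between probes. The mouse Npc1l1 probe does not test the human transgene. It was well above background in 1 L1-Tg pool and 2 WT pools and was not tested. Defining hepatocyte markers were bright on every array, with all 9 that were on the array well above background in each pool. Pancreas markers stood apart in L1-Tg replicate 2, where their summed signal was 107 times the 75th percentile against 11.5 to 13.2 on the other 5 arrays.

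For none of the 9 factors did the difference between the genotypes pass the test. In limma the count past the adjusted threshold of 0.05 was 0 of 9, where 29 of 22341 genes tested, or 0.13%, passed. The number with an unadjusted p under 0.05 was also 0 (8.86% of all genes tested), and the test without moderated variance also had 0 members under it (1837 of all genes tested). The pools of L1-Tg and WT mice overlapped for each of the 9, whereas they did not overlap for 15.9% of all genes tested. This held for all 6 pools, and with 1 pool left out up to 3 members no longer overlapped: Hnf4a and Nr5a2 without L1-Tg replicate 2 (27.4% of all genes), Foxa1 and Foxa2 without WT replicate 1 (27.6%), and Hnf4a, Onecut1 and Prox1 without WT replicate 3 (32%). After a normexp background correction Hnf4a alone did not overlap (16.2% of all genes). Of the 9 log2 differences, taken as L1-Tg minus WT, 4 were positive and 5 negative, and they lay between -0.14 and 0.13. Their median was -0.04, beside -0.03 over all genes tested. The median SD within groups was 0.17 for the members and 0.17 for all genes tested, and 4 of the 9 members lay below the median of all genes. The difference index of the methods divides the difference of the mean signals by the sum of the SDs and calls a gene past a modulus of 0.7. It was passed by 0 of 9 members and by 30.2% of 37069 genes, which include genes too dim to be tested. With the mean of the tested probes of each gene, 0 members and 26.6% of 22355 genes passed it. The index shares given below for other settings include dim genes as well. In bulk liver, fewer cells of a type and less RNA per cell cannot be told apart, and this applies to every value here.

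**Figure D1:**
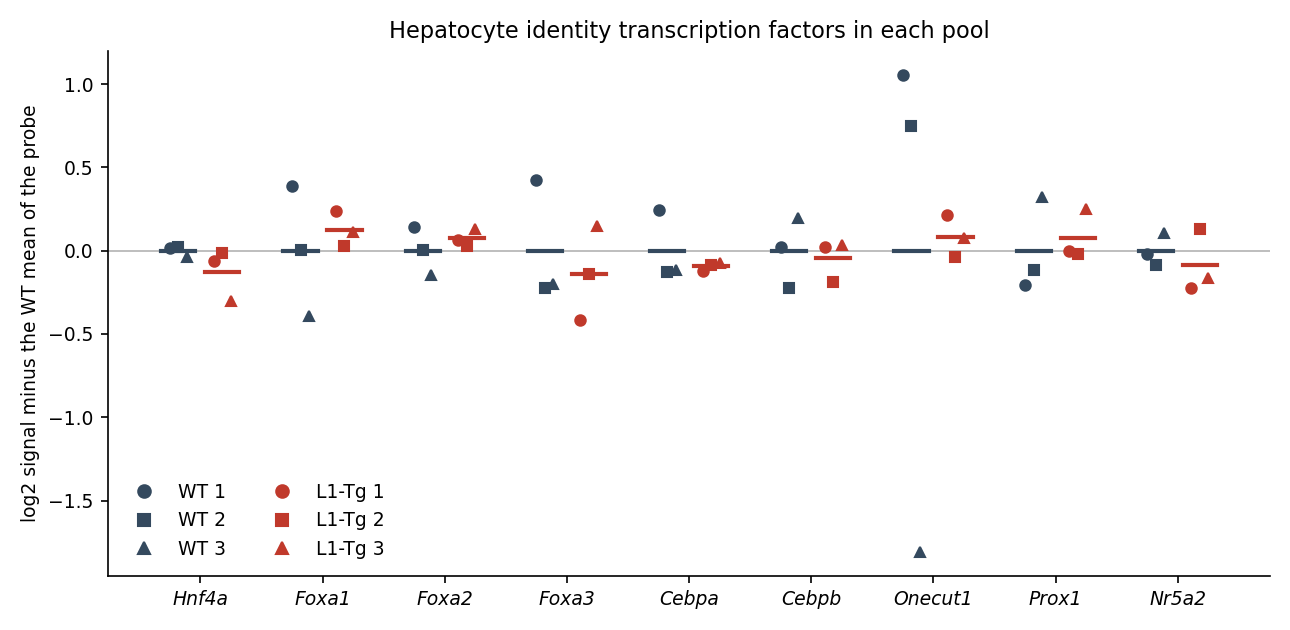
Log2 signal of each factor in each pool, minus the WT mean of its probe (y axis), for 3 WT pools (dark) and 3 L1-Tg pools (red), with a bar at each group mean. The groups overlap for all 9 factors, and Onecut1 in WT replicate 3 lies 1.81 below the WT mean.

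Hnf4a had log2 signals of 7.53, 7.57 and 7.29 in L1-Tg replicates 1 to 3 and of 7.60, 7.61 and 7.55 in the WT pools of the same numbers. The WT pools were close together (SD 0.03), and L1-Tg replicate 3 was the lowest of the 6. L1-Tg replicate 2 lay within the WT range and L1-Tg replicate 1 just below it. The difference of -0.13 had a 95% interval from -0.39 to 0.13, or from 0.765-fold to 1.096-fold (limma adjusted p = 0.709). Its index of -0.687 was the largest in modulus among the members and lay just under the threshold. Without L1-Tg replicate 3 the difference was -0.04. An antisense neighbor at the same locus, Hnf4aos, was chosen after its values were seen, since L1-Tg replicate 3 was the lowest pool there too. Its log2 signals were 2.24, 2.29 and 1.90 in L1-Tg pools and 2.33, 2.36 and 2.35 in WT pools, so that its groups did not overlap, and it differed by -0.21 (limma adjusted p = 0.641). Among the genes whose pattern over the 6 pools was most like that of Hnf4a, by the root mean square difference of centered log2 signals, was Tfb2m (0.0251), against an SD of 0.122 of Hnf4a over the same pools.

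The FOXA factors were measured with 4 probes. Foxa1 had log2 signals of 2.18, 1.97 and 2.05 in L1-Tg pools and of 2.33, 1.94 and 1.55 in WT pools. The WT pools enclosed all L1-Tg pools, and the difference was 0.13 (standard error 0.20, 95% interval -0.36 to 0.61, limma adjusted p = 0.845). Foxa2, read from the brighter of its probes, had signals of 3.35, 3.32 and 3.42 in L1-Tg pools and of 3.44, 3.29 and 3.15 in WT pools. Again the WT pools reached above and below the L1-Tg pools. The difference was 0.07 (95% interval -0.18 to 0.33), and the other Foxa2 probe gave 0.02 (95% interval -0.24 to 0.28), so both probes lay near 0. With 1 pool left out the Foxa2 difference ranged from 0.0014 without WT replicate 3 to 0.15 without WT replicate 1. Foxa3 had signals of 1.73, 2.001 and 2.29 in L1-Tg pools and of 2.57, 1.92 and 1.94 in WT pools. This was the most negative of the 9 differences, -0.14, yet its interval from -0.69 to 0.41 was wide and WT replicate 1 alone was above every L1-Tg pool. Without WT replicate 1 the Foxa3 difference was 0.07 and the Foxa1 difference 0.32. The nearest patterns were those of Tsfm and Tuft1 for Foxa1, of Hspd1 and G3bp1 for Foxa2, and of Tmem107 and Snd1 for Foxa3, with root mean square differences between 0.0247 and 0.0808.

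**Figure D2:**
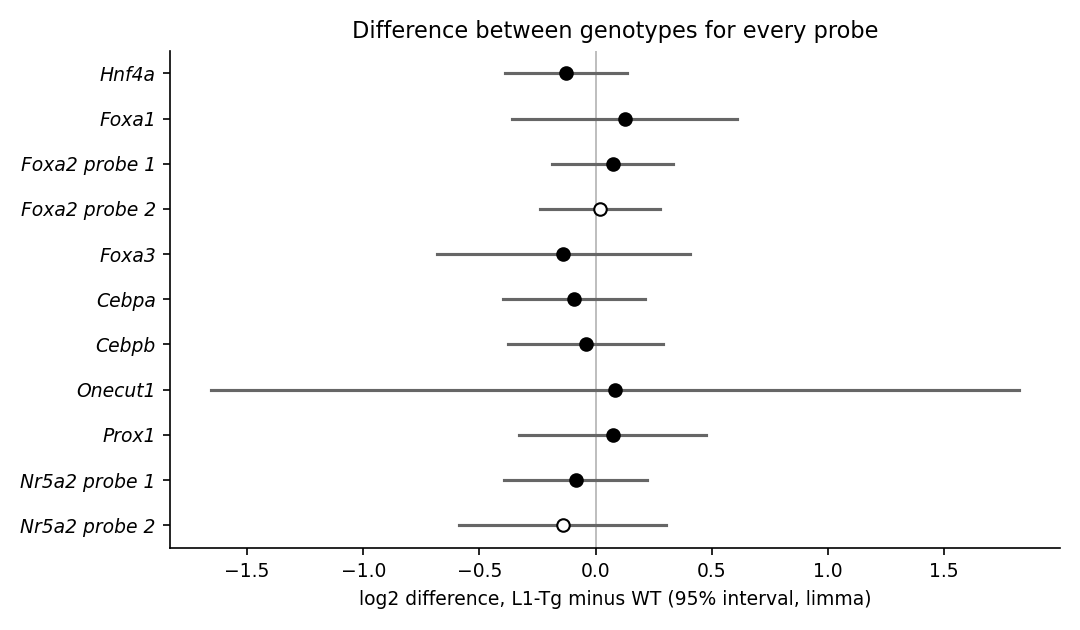
Log2 difference between L1-Tg and WT (x axis) with its 95% limma interval for each of the 11 probes of the 9 factors; filled points are the probes used for the gene and open points the other probes of Foxa2 and Nr5a2. Every interval includes 0, and that of Onecut1, from -1.66 to 1.82 in the fit over probes, is the widest.

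For the C/EBP factors the pools were close. Cebpa, which sustains metabolic genes in the resting hepatocyte, had log2 signals of 4.59, 4.63 and 4.64 in L1-Tg pools and of 4.96, 4.58 and 4.60 in WT pools. One WT pool, replicate 1, was above the other 5, and without it the difference of -0.09 (95% interval -0.40 to 0.21, limma adjusted p = 0.816) became 0.03. Cebpb, which is induced in the acute phase response, had signals of 4.91, 4.70 and 4.92 in L1-Tg pools and of 4.91, 4.66 and 5.08 in WT pools. In either genotype replicate 2 was the lowest pool. The Cebpb difference was -0.04 (95% interval -0.37 to 0.29, limma adjusted p = 0.930). Rnf126 and Zbtb40 had the patterns nearest to Cebpa, and Ccdc141 and Vps11 those nearest to Cebpb.

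Onecut1 stood out by its spread and not by its mean. Its processed signals were 228.5, 150.6 and 185.2 in L1-Tg pools and 342.5, 275.7 and 50.6 in WT pools, which gave log2 signals of -0.73, -0.98 and -0.86 and of 0.12, -0.19 and -2.75. Hence WT replicates 1 and 2 were above all L1-Tg pools, and WT replicate 3 was far below them. The spot was marked well above background, uniform and unsaturated on all 6 arrays, and 21% of the probes above background on WT replicate 3 were dimmer, against 45.5% to 55.3% on the other arrays. A normexp background correction left the WT signals at 0.14, -0.12 and -1.79 and the L1-Tg signals at -0.59, -0.77 and -0.61. The SD within groups was 1.12, and 0.85% of all genes tested had a larger one. The difference of 0.08 (standard error 0.73, limma adjusted p = 0.979) therefore had an interval from -1.67 to 1.84, or from 0.314-fold to 3.58-fold, and differences within it were not detectable with these pools. Without WT replicate 3 the difference was -0.82 with a standard error of 0.15 (unadjusted p = 0.0019 and adjusted p = 0.181 in limma), and the remaining pools did not overlap. No other member had an unadjusted p under 0.05 under any alternative. Without WT replicate 3, 2827 of 22531 genes tested had such a p. Ces2b, a carboxylesterase, and Kcna3, a potassium channel, had the nearest patterns, with root mean square differences of 0.290 and 0.337 against an SD of 0.999 of Onecut1. Both were picked for their likeness to Onecut1 over these same pools, so their low signals in WT replicate 3 are no separate evidence. Those signals were 1.73 and -6.44, against 3.55 to 4.03 and -4.11 to -3.95 in the other WT pools. Kcna3 passed the filter on dim probes through its L1-Tg pools alone, as it was well above background in 2 of the 3 WT pools.

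Prox1 and Nr5a2 act on partly shared genes of bile acid synthesis. Prox1 had log2 signals of 0.10, 0.08 and 0.35 in L1-Tg pools and of -0.10, -0.02 and 0.42 in WT pools. Replicate 3 was the highest pool of each genotype, and the difference was 0.07 (95% interval -0.33 to 0.48, limma adjusted p = 0.895). Nr5a2 had signals of 2.77, 3.12 and 2.83 in L1-Tg pools and of 2.97, 2.91 and 3.10 in WT pools. It was the only member whose highest pool was L1-Tg replicate 2, the pool with the pancreas signal, and NR5A2 is also made in pancreatic acinar cells. The difference was -0.09 (95% interval -0.39 to 0.22, limma adjusted p = 0.831), the dimmer Nr5a2 probe gave -0.14, and without L1-Tg replicate 2 the difference was -0.19 (adjusted p = 0.727). On the dimmer probe L1-Tg replicate 2, at -1.20, was not the highest pool. The part of the pancreas signal in these values was not tested. Dmxl2 and Zbtb39 had the patterns nearest to Prox1, and Ptdss1 and Emc3 those nearest to Nr5a2.

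Over the 9 factors no pool was low or high throughout. The median of the members, each taken against its WT mean, was 0.14, -0.09 and -0.11 in the 3 WT pools, and -0.005, -0.02 and 0.08 in the 3 L1-Tg pools. WT replicate 1 was the highest pool for 5 members and WT replicate 3 the lowest for 3. Thus the WT pools spanned the medians of all L1-Tg pools. In WT replicate 1 the medians of Kupffer cell and neutrophil markers were the lowest of the 6 pools, at -0.40 and -0.60 against their WT means. Those of endothelial and lymphocyte markers were also the lowest, at -0.11 and -0.24, and that of cholangiocyte markers was the highest, at 0.53. The medians of hepatocyte, stellate cell and pancreas markers were neither. The part of other cell types in the members' values was not tested.

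**Figure D3:**
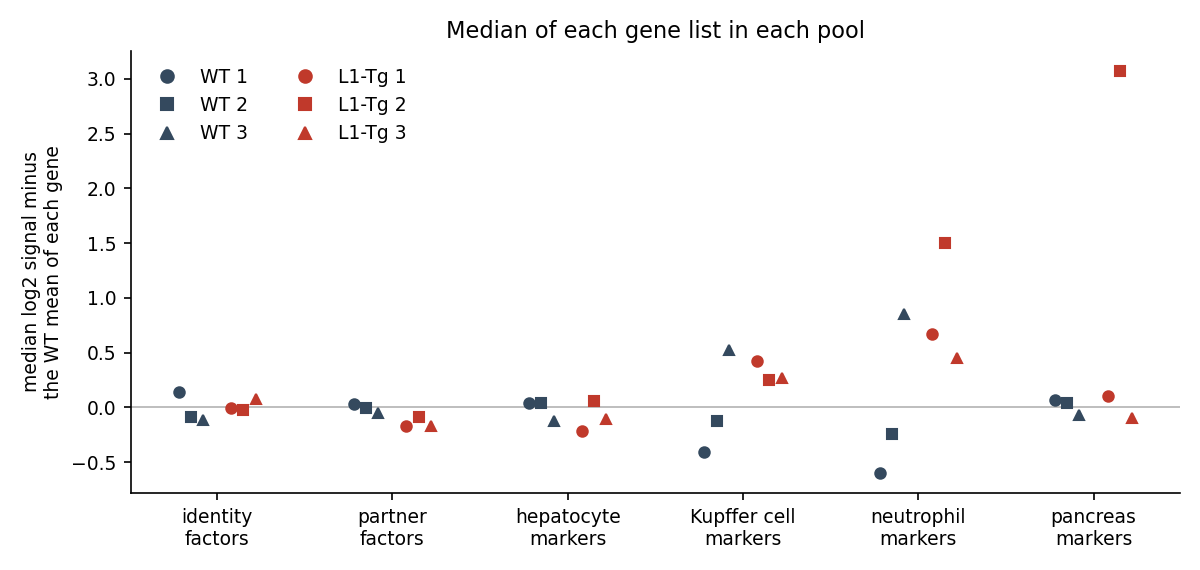
Median log2 signal of each gene list in each pool, each gene taken against its WT mean (y axis), for 3 WT pools (dark) and 3 L1-Tg pools (red). The medians of the identity factors lie between -0.11 and 0.14 in all 6 pools, while that of the pancreas markers is 3.07 in L1-Tg replicate 2.

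Most other transcription factors that work with these 9 had negative differences of small size, and none passed the test. Of 26 partner factors 25 were tested, and 7 differences were positive and 18 negative (72%, against 56.9% of all genes tested), with 0 past the adjusted threshold in limma and 1 with an unadjusted p under 0.05. Their median was -0.16. In each L1-Tg pool the median against the WT means was below that in each WT pool, at -0.17, -0.08 and -0.17 against 0.03, -0.01 and -0.05. Only the 75th percentile scaling was used for these medians, which 1 factor per array moves. Such medians of all genes are not given here. Groups did not overlap for 5 partners, or 20% beside 15.9% of all genes tested, and in all 5 the L1-Tg pools were lower, as they were for 1929 of the 3554 such genes in all. With 25 partners this share was near that of all genes. Among them were Klf15, a factor of amino acid and glucose metabolism, Rxra, the partner of many nuclear receptors, and Nfib and Nr1h4, both of which are named after their values were seen. Klf15 had signals of 3.17, 3.56 and 3.42 in L1-Tg pools and of 3.63, 3.70 and 3.81 in WT pools, and differed by -0.33 with a standard error of 0.13 (limma adjusted p = 0.547). Rxra differed by -0.20, Nr1i2, the pregnane X receptor, by -0.27 and Ppargc1a, the coactivator PGC-1α, by -0.71, each with an adjusted p of at least 0.566 in limma. The count of partners without overlap depended on the pools and on the scaling, and so did that of all genes. Without L1-Tg replicate 2 it was 10 partners, all lower, where 3580 of all genes were lower and 2648 higher. With the array median 0 partners were lower and 1 higher, where 572 of all genes were lower and 2524 higher. Under that scaling 14 of the 25 partner differences were negative (56%, against 33.7% of all genes tested). Their median was then -0.06. Relative to the median of all genes, a measure that 1 factor per array cannot move, the median of the partners was -0.133.

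Known target genes were counted in the same way. The 43 tested targets, each counted once and without the members, divided into 19 positive and 24 negative differences, with a median of -0.09. After adjustment limma called 0 of them, and 4, or 9.30%, had an unadjusted p under 0.05 beside 8.86% of all genes tested. Groups did not overlap for 5 of them, or 11.6%, which was below the 15.9% of all genes tested, and each of the 5 was lower in L1-Tg pools. Among them were Apoa1, Slc10a1, Pck1 and Scarb1.

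By factor, the 17 tested HNF4A targets had a median of -0.09, with 6 positive and 11 negative differences. This split depended on the scaling. After quantile normalization 8 of the 17 were negative, with a median of 0.003 beside 0.007 over all genes. With the array median 6 were negative, with a median of 0.014 beside 0.077 over all genes. Apoa1, the main protein of HDL, had log2 signals of 7.58, 7.83 and 7.79 in L1-Tg pools and of 8.56, 8.16 and 7.93 in WT pools, and differed by -0.49 with a standard error of 0.18 (limma adjusted p = 0.532). Apob differed by -0.28, Apoc3 by -0.25 and Slc10a1, the bile acid uptake carrier NTCP, by -0.15. The 10 FOXA targets had a median of -0.15, with 4 positive and 6 negative. Among them Pck1, the gluconeogenic enzyme PEPCK, differed by -0.46 (limma adjusted p = 0.518), with each L1-Tg pool below each WT pool. G6pc, which releases glucose, differed by -1.002 (standard error 0.48, adjusted p = 0.588), with signals of 3.66, 5.58 and 4.05 in L1-Tg pools and of 5.32, 5.29 and 5.69 in WT pools, so that L1-Tg replicate 2 lay within the WT range. Afp, the fetal albumin-like protein, differed by 0.27.

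The 14 C/EBP targets were split evenly, 7 positive and 7 negative, with a median of -0.03. Gys2, the liver glycogen synthase, differed by -0.39 (standard error 0.16), and Orm2, an acute phase protein, by 0.48 (standard error 0.20). For the 8 tested targets of NR5A2 and PROX1 the median was -0.16, with 3 positive and 5 negative. Scarb1, the HDL receptor, had the smallest p of all the targets. Its signals were 4.48, 4.52 and 4.29 in L1-Tg pools and 4.96, 4.72 and 4.73 in WT pools, so that it differed by -0.38 with a standard error of 0.11 (limma adjusted p = 0.480). Cyp7a1, the rate-limiting enzyme of bile acid synthesis, differed by -0.45 (limma adjusted p = 0.589) and Cyp8b1 by -0.65, and in both genes the pools of the groups overlapped. The 8 ONECUT1 targets, which include Hnf4a and Foxa2, had 4 positive and 4 negative differences and a median of -0.04. With the array median, the medians of the C/EBP and ONECUT1 targets were 0.08 and 0.07. Those of the FOXA targets and of the NR5A2 and PROX1 targets were negative under that scaling, at -0.04 and -0.05. Without L1-Tg replicate 1 the median of the NR5A2 and PROX1 targets was 0.02, with 3 of 8 negative. Without WT replicate 3 that of the FOXA targets was -0.03, beside -0.04 over all genes tested.

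**Figure D4:**
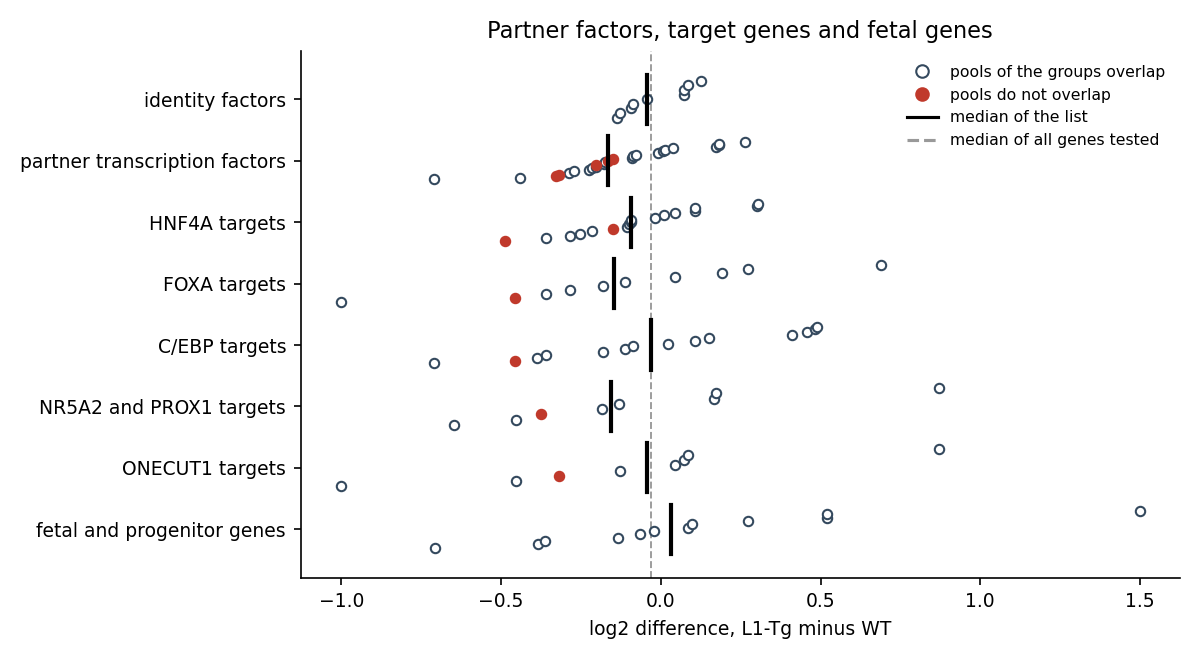
Log2 difference between L1-Tg and WT (x axis) for every tested gene of 8 lists, with filled points where the pools of the groups do not overlap, a bar at each list median and a dashed line at the median of all genes tested. The 9 identity factors lie between -0.14 and 0.13, and the partner factors between -0.71 and 0.26.

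Genes of fetal liver and of progenitor or biliary cells, which loss of these factors is known to release, showed no common direction. Of 18 such genes 12 were tested, 6 positive and 6 negative, with a median of 0.03 and 0 past the adjusted threshold in limma. The pools of the groups overlapped for each of the 12. Igf2bp3, an RNA-binding protein of fetal tissue, passed the filter on dim probes through its L1-Tg pools alone, being well above background in 2 of 3 WT pools. Its measured difference of 1.50 is given without its p-value. Krt7, at -0.36, passed through its WT pools alone, being well above background in 2 of 3 L1-Tg pools. Both are in the counts above. With genes well above background on all 6 arrays, 5 of 10 were negative, and the median was also 0.03. H19, an imprinted RNA of fetal liver, differed by -0.71, Spp1 by 0.52 and Cd24a by 0.52. Among the others, Igf2, Dlk1, Gpc3, Epcam and Lin28b were too dim to be tested, as no group had them well above background in all its pools.

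**Figure D5:**
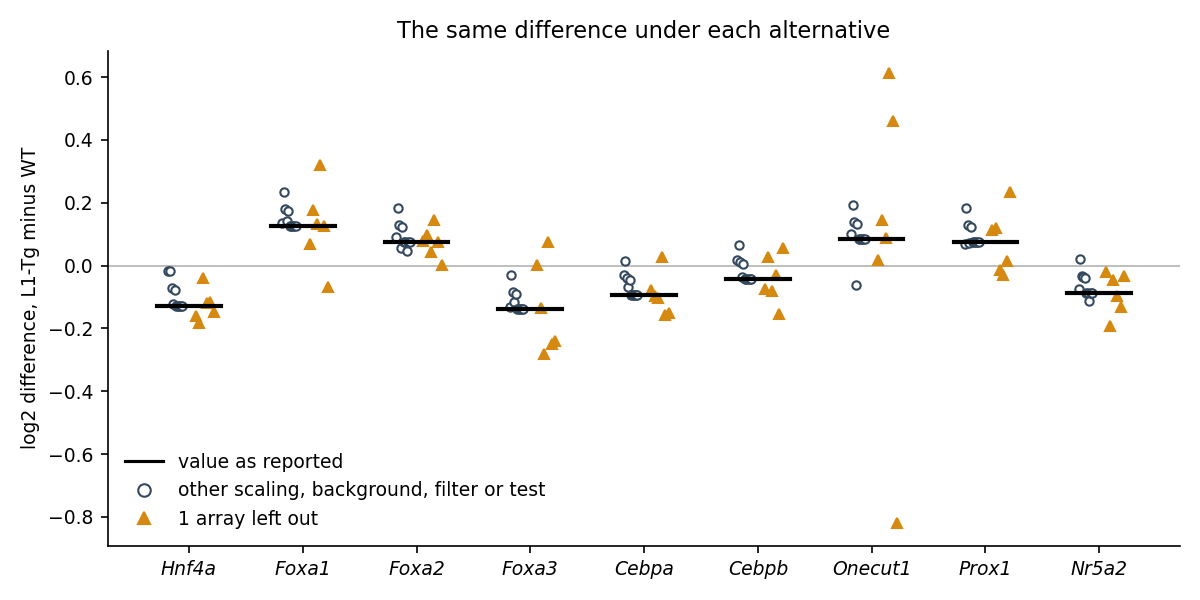
Log2 difference between L1-Tg and WT for each factor (y axis) as reported (bar), under another scaling, background correction, filter or test (open circles) and with 1 array left out (triangles). Without WT replicate 3 Onecut1 moves to -0.82, and all other values lie between -0.28 and 0.61.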

How the data were processed

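Cy3-labeled liver cRNA of 3 L1-Tg and 3 WT pools was hybridized to SurePrint G3 mouse arrays. The authors read the scans with Feature Extraction 10.10.1.1 (Agilent). Their deposited signal of a spot is an intensity, background-subtracted within its array and unscaled. Deposited marks of 0 or 1 give spots well above background, saturated or non-uniform. The authors' series matrix holds intensities equal to these signals times 1 factor per array, whose origin is not given in the sources used here.

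Controls were left out, non-uniform spots were set missing, and log2 signals were scaled to the 75th percentile. Of 55681 probes on the array, 28685 had a RefSeq-type name, and 27235 of these were given a symbol. All other probes were counted under their deposited name, so the genes counted here include such unnamed entries. A gene took its brightest probe, and 22341 genes well above background in all pools of a group were fitted with limma 3.58.1 in R 4.3.3, two-sided, with Benjamini-Hochberg adjustment over all of them. Precision is limited by the number of arrays. The limma p-values set each difference against the spread between these pools, with variances moderated over all genes fitted. Read with data.table (1.17.8) and jsonlite (2.0.0), the steps were tested on simulated data.

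Members and lists (partners, targets by factor, fetal genes, cell type markers) were chosen with earlier results of these data known. Named genes are the members, the 4 smallest p of each list, and the 2 nearest patterns of each member. A few genes under this rule are not reported here. Alternatives were other scalings, normexp (offset 50), the matrix, other filters, probe means, a replicate block, a test without moderated variance, and each array left out. The sources used here name no pairing of pools by replicate number, although same-numbered pools shared a slide column. Deviations of same-numbered pools correlated at -0.157, 0.111 and 0.0193.

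The marker lists had 0 genes past the adjusted threshold in limma. Their median log2 differences were -0.09 for 9 hepatocyte, -0.36 for 5 cholangiocyte, 0.30 for 7 Kupffer cell and 0.10 for 7 endothelial genes. They were -0.05 for 7 stellate cell, 0.36 for 7 lymphocyte, 0.87 for 3 neutrophil and 0.91 for 7 pancreas genes. Some of these genes, among them Krt7, Cd79a and Cd8a, passed the filter on dim probes through 1 group alone. With genes well above background on all 6 arrays, the medians were -0.15 for 4 cholangiocyte and 0.27 for 4 lymphocyte genes. After normexp the lymphocyte median was -0.02. Without WT replicate 1 the medians were 0.03 for cholangiocytes, 0.09 for Kupffer cells and 0.56 for neutrophils. Without L1-Tg replicate 2 that of pancreas was -0.02.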

Additional observations from a re-analysis of the deposited data

How the results depend on the processing

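Across 16 alternatives and the 9 factors, 144 differences were recomputed and 0 passed the adjusted threshold, the lowest adjusted p being 0.181 in limma for Onecut1 without WT replicate 3. Hnf4a and Foxa2 turned under none of them, with Foxa2 at 0.0014 without WT replicate 3, and 16 of the 144 differences turned; 4 alternatives (both filters, the replicate block and the test without moderated variance) left every member difference as reported and could turn none. The array median, which moved the median of all genes from -0.03 to 0.08, turned Cebpa to 0.016, Cebpb to 0.066 and Nr5a2 to 0.022, and the median of the members to 0.066. Cebpb was also 0.019 after quantile normalization, 0.012 without scaling and 0.0052 with the deposited matrix, and Onecut1 was -0.063 after normexp; beyond the shift of the scaling, the cause was not tested. With 1 array left out the differences ranged from -0.069 to 0.32 for Foxa1, -0.28 to 0.075 for Foxa3, -0.16 to 0.029 for Cebpa, -0.15 to 0.055 for Cebpb, -0.82 to 0.61 for Onecut1 and -0.028 to 0.24 for Prox1. The median of the members then ranged from -0.12 to 0.03. The difference index was passed by 1 member with the array median (Foxa2; 20.8% of all genes), with normexp (Hnf4a; 23.4%) and with the deposited matrix (Foxa2; 29.3%), and by 0 to 3, at most about the share of 33.8% to 40.9% of all genes, with 1 array left out: Hnf4a and Nr5a2 without L1-Tg replicate 2, Foxa1, Foxa2 and Cebpa without WT replicate 1, and Hnf4a, Onecut1 and Prox1 without WT replicate 3. With the replicate block, which stands for the slide column and for no other known pairing, 0 members passed the adjusted threshold and 11 of all genes did. In their deviations, 2 of 6 arrays correlated best with their own number. Of all genes, 29 passed as reported, 10 without a filter on dim probes, 0 in the test without moderated variance (1837 with an unadjusted p under 0.05) and 15 to 36 with 1 array left out. Partner and target genes past the threshold numbered 0 under each alternative. The 95% intervals, with a median half-width of 0.33 over the members, are not adjusted for the number of genes. Smaller changes, and larger ones too, could miss the adjusted threshold with 3 pools a group. Scarb1, at -0.38, had an adjusted p of 0.480 in limma.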
